A study of Danio rerio with 8 samples.

Results

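The genes described are those of the melatonin synthesis pathway, chosen by name: every gene whose symbol in the authors' annotated table starts with *aanat*, *asmt* or *tph*. The rule found 5 of the 13325 genes in that table, namely *tph1a*, *aanat1*, *aanat2*, *asmt* and *asmtl*, and all 5 had enough counts to be tested. RNA-seq was performed on cells sorted from the retinas of 4 adult zebrafish of the *xops:eGFP* line (genotype XOPS:eGFP), whose eGFP is expressed in rods from the rod opsin promoter of *Xenopus*. The GFP+ population holds the sorted rods and the GFP- population the remaining, non-rod retinal cells, and both retinas of a single fish gave 1 GFP+ and 1 GFP- library, so that the 8 libraries form 4 pairs. All 8 libraries share the transgene, the light:dark housing and a dark adaptation before dissection, and RNA was amplified before sequencing. The titles of the libraries of fish 3 and fish 4 carry the suffix _2, whereas those of fish 1 and fish 2 do not. What the suffix stands for is not given in the sources used here, nor is the hour at which each fish was dissected. The study's design included the sex of the fish, but the labels do not give it. The paper lists *pmela* as missing from the rods of females and found in those of males. Its GFP+ level was 0, 0, 7.86 and 8.23 CPM (defined below) in fish 1 to 4. By that pattern fish 1 and 2 would be the females and fish 3 and 4 the males. Sex, batch and hour cannot be told apart from the suffix in any comparison of the titles.

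Melatonin is made from tryptophan in a short chain of reactions. Tryptophan hydroxylase (Tph) and aromatic amino acid decarboxylase (Ddc) make serotonin, arylalkylamine N-acetyltransferase (Aanat) acetylates it, and acetylserotonin O-methyltransferase (Asmt) adds the methyl group that gives melatonin. Photoreceptors are the best known source of melatonin in the vertebrate retina, and its synthesis is high at night. Teleost fish carry more than 1 *aanat* gene, of which *aanat1* is known mainly from the retina and *aanat2* mainly from the pineal organ.

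Counts on genes ranged from 1722055 to 2514874 per library, and where a count was 0 the limit was taken as 3 counts, a limit of counting error only because amplified reads are not independent molecules. Levels are given as CPM, which are counts scaled to a common library size after TMM normalization. The labelled populations were checked against markers of rods, cones and other retinal cells. All 16 rod markers tested were higher in GFP+ libraries, with *gnb1b* entered once for each of its gene IDs. All 18 cone markers tested were lower in GFP+ libraries. The summed rod marker level was 42858 to 75727 CPM in GFP+ against 3487 to 16079 CPM in GFP- libraries. Lower in GFP+ were also 5 of 6 bipolar, 4 of 7 amacrine and horizontal, 1 of 2 ganglion and 6 of 6 microglia markers tested. Of 7 Mueller glia markers only 1 was lower, with a median log2 fold change of -0.80. None of these markers of other cells was higher. Over all genes tested 5.60% were higher and 9.57% were lower. Of the 4 genes listed for pineal photoreceptors, *exorh* and *parapinopsina* matched no gene ID, so their levels are not known. The other 2, *parapinopsinb* and *parietopsin*, had a summed level of at most 6.91 CPM in any library. *parietopsin* had 25 counts in all GFP+ and 5 in all GFP- libraries. Mitochondrially encoded genes took 15.8% ± 4.74 (SD, n = 2) of GFP+ counts in fish 1 and 2 and 34.1% ± 7.35 (SD, n = 2) in fish 3 and 4, and in GFP- libraries 26.0% ± 1.34 (SD, n = 2) and 62.4% ± 5.28 (SD, n = 2). This share therefore moves with the titles. Leaving these genes out of the fits on the titles below shows only their effect on scaling and testing. What else differs with the share was not tested.

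The first question was which steps of the pathway have more transcript in rods than in the other retinal cells. Of the 5 genes, *aanat1* and *asmt* were higher in GFP+ cells, and *tph1a*, *aanat2* and *asmtl* were not called in either direction. The call is an FDR under 0.05 in the quasi-likelihood test of edgeR, with fish as the block. In this comparison 5.60% of the 12564 genes tested were called higher and 9.57% lower, which is 703 and 1202 genes. Without scaling factors the split turned to 1125 higher and 735 lower, and the median log2 fold change of all genes tested moved from -0.02 to 0.32. The direction of *aanat1* and *asmt* was the same under both scalings. In sorted bulk samples, fewer cells of a type and less RNA per cell cannot be told apart.

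*tph1a* (ENSDARG00000029432, chromosome 25, 8402878 to 8423475 on Zv9, minus strand) encodes a tryptophan hydroxylase, the enzyme of the first step. Its level in GFP+ libraries was 26.1, 9.06, 62.2 and 141 CPM in fish 1 to 4, and in GFP- libraries it was 49.8, 18.2, 35.4 and 57.0 CPM. The GFP+ library was the lower one of the pair in fish 1 and 2 and the higher one in fish 3 and 4, and the populations overlapped. The fitted log2 fold change was 0.08 (SE 0.40, 95% interval -0.75 to 0.91), and it was not significant (edgeR FDR = 0.937). Another tryptophan hydroxylase ID, ENSDARG00000057239, which the table of gene names calls TPH2, is not in the authors' table, and its counts in fish 1 to 4 were 8, 8, 3 and 3 in GFP+ and 4, 0, 0 and 3 in GFP-. These counts were too few to be tested, and the remaining ID named TPH1 had a count of 0 in all 8 libraries, for which the limit is 3 counts in each.

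*aanat1* (ENSDARG00000036567, chromosome 6, 22265935 to 22268482 on Zv9, minus strand) encodes an arylalkylamine N-acetyltransferase. The level in GFP+ libraries was 82.5, 79.0, 184 and 314 CPM in fish 1 to 4. In the GFP- libraries of the same fish it was 7.88, 10.1, 101 and 30.4 CPM. The GFP+ library was higher in every fish, but the GFP- library of fish 3 stood above the GFP+ libraries of fish 1 and 2, so the populations overlapped across fish. GFP+ libraries had a mean of 165 ± 111 CPM (SD, n = 4), compared with 37.4 ± 43.7 CPM (SD, n = 4) for GFP-. The fitted difference was 6.22-fold (log2 fold change 2.64, SE 0.38, 95% interval 1.85 to 3.43), with an edgeR FDR of 3.43e-05, and *aanat1* ranked 74 by p-value among the genes that were higher in GFP+. Within fish the log2 ratio was 3.31, 2.91, 0.86 and 3.35, so the ratio of fish 3 lay apart from the other ones.

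*aanat2* (ENSDARG00000079802, chromosome 3, 55739454 to 55745378 on Zv9, plus strand) encodes the other N-acetyltransferase of this family. Its GFP+ levels were 71.0, 203, 92.2 and 56.2 CPM in fish 1 to 4. Its GFP- levels were 71.2, 95.6, 76.1 and 40.8 CPM. The libraries of each pair lay close together except in fish 2, where the GFP+ library was the highest of all 8. The log2 fold change was 0.46 (SE 0.29, 95% interval -0.14 to 1.05), which did not pass the test (edgeR FDR = 0.336), and the interval still allows a 2.08-fold higher level in GFP+ cells.

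The balance of the *aanat* genes could be read within each library without any scaling. There were 1.16, 0.389, 2 and 5.59 counts of *aanat1* per count of *aanat2* in the GFP+ libraries of fish 1 to 4. In the GFP- libraries there were 0.111, 0.105, 1.33 and 0.746. The ratio was higher in the GFP+ library of all 4 fish, by 3.39, 1.88, 0.59 and 2.90 on the log2 scale of these count ratios (exact sign-flip test, two-sided; the p of 1 in 8 is the lowest that 4 fish can give).

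*asmt* (ENSDARG00000075320, on the unplaced Zv9 scaffold Zv9_NA998, 14409 to 25816, minus strand) encodes the O-methyltransferase of the last step. Its GFP+ level in fish 1 to 4 was 182, 163, 614 and 906 CPM. In the GFP- libraries it was 51.7, 37.9, 201 and 254 CPM. Again the GFP+ library was higher in every fish, while the GFP- libraries of fish 3 and 4 both stood above the GFP+ libraries of fish 1 and 2. The means were 466 ± 360 CPM (SD, n = 4) and 136 ± 108 CPM (SD, n = 4), a fitted 3.57-fold difference (log2 fold change 1.84, SE 0.26, 95% interval 1.30 to 2.37, edgeR FDR = 2.37e-05). In contrast with *aanat1*, the within-fish log2 ratio varied little, at 1.81, 2.09, 1.61 and 1.83. Both genes depend on the pairing: without the fish as a block the FDR was 0.145 for *asmt* and 0.0972 for *aanat1*, and the log2 fold changes were 1.75 and 2.17.

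**Figure D1:**
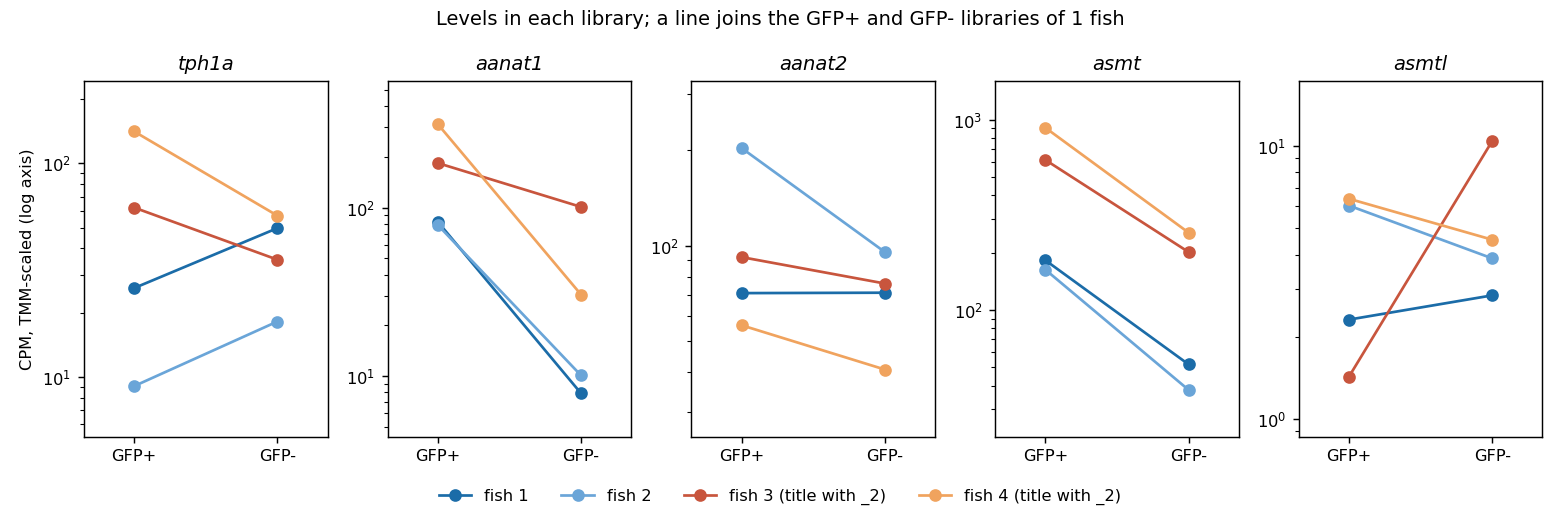
Level of each of the 5 genes in CPM after TMM scaling (log axis, with its own range in each panel) in the GFP+ and GFP- library of fish 1 to 4; each line joins the libraries of 1 fish. The lines of aanat1 and asmt fall from GFP+ to GFP- in all 4 fish, from 82.5 to 7.88 CPM for aanat1 in fish 1 for example, whereas those of tph1a cross.

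*asmtl* (ENSDARG00000021433, chromosome 9, 35844037 to 35853820 on Zv9, minus strand) is named for its likeness to *asmt*. It had only 2 to 14 counts in any library. Its levels were 2.31, 6.04, 1.43 and 6.40 CPM in GFP+ and 2.84, 3.87, 10.4 and 4.53 CPM in GFP- libraries, with no shared direction across fish. The log2 fold change was -0.34 (SE 0.92, 95% interval -2.25 to 1.57, edgeR FDR = 0.871), so a difference was not detectable at this depth. A further gene, listed by the authors as zgc:162232 and by the table of gene names as *asmt2* (ENSDARG00000070874, chromosome 17, 26656711 to 26668128 on Zv9), falls outside the rule. Its levels were 4.29, 12.1, 7.86 and 2.29 CPM in GFP+ libraries and 12.3, 18.6, 12.5 and 9.06 CPM in GFP- libraries. The GFP+ library was the lower one in 4 of 4 fish, opposite to *asmt*, but the log2 fold change of -1.15 (SE 0.62) did not pass the test (edgeR FDR = 0.245), and 18.8% of the genes tested were lower in GFP+ in all 4 fish. The log2 ratio of *asmt* exceeded that of zgc:162232 by 3.22, 2.69, 2.24 and 3.61 in fish 1 to 4 (exact sign-flip test, two-sided, again with p at its lowest of 1 in 8).

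Of the 5 genes, *aanat1* and *asmt* were higher in the GFP+ library of all 4 fish, a pattern shared by 15.6% of the genes tested. Their enrichment was set beside that of *rho*, the rod opsin gene, whose log2 fold change was 3.21 (SE 0.35, edgeR FDR = 1.45e-06). This was the highest value of the 16 rod markers tested. Their log2 fold changes started at 1.97 (*nr2e3*) and had a median of 2.91. *aanat1*, at 2.64, lay within that range and *asmt*, at 1.84, just below it. The ratio of *rho* exceeded that of *asmt* in 4 of 4 fish, by 1.97, 1.86, 0.69 and 0.96 on the log2 scale (exact sign-flip test, two-sided, with p at its lowest of 1 in 8). Against *aanat1* it was larger in 3 of 4 fish, by 0.47, 1.03 and 1.44 in fish 1 to 3 and by -0.55 in fish 4 (exact sign-flip test, two-sided, p = 0.375). In each fish, *asmt* transcript in the GFP- library thus stood higher relative to the GFP+ library than *rho* transcript did, whereas *aanat1* had no shared direction against *rho*. The cone genes *opn1lw2* (a red opsin), *gnat2* (cone transducin) and *arr3a* (a cone arrestin) had log2 fold changes of -2.77, -2.55 and -3.03, all with an edgeR FDR of at most 3.84e-06.

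**Figure D2:**
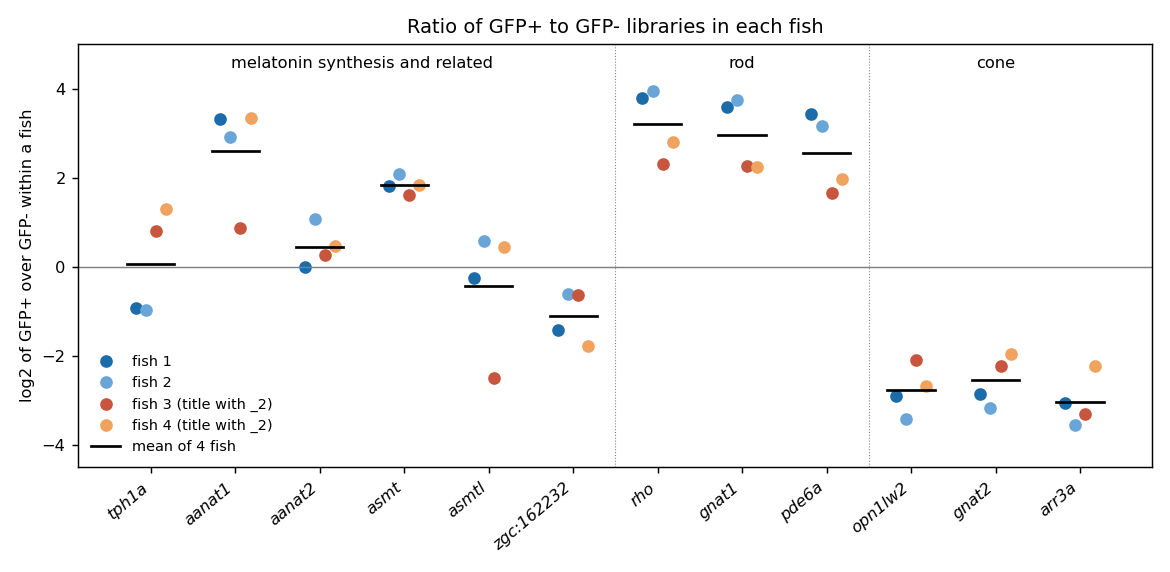
Log2 ratio of the GFP+ to the GFP- library within each of the 4 fish (points) and its mean (bar) for the genes of melatonin synthesis and 3 reference genes each of rods and cones. The points of asmt lie between 1.61 and 2.09, those of aanat1 spread from 0.86 to 3.35, and those of aanat2 from -0.0043 to 1.08.

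The enzymes that supply the pathway, its cofactors, its receptors and its known regulators were then examined as a list of 78 symbols, of which 59 gene IDs were in the files and 39 were tested. Of these, 6 were higher and 1 was lower in GFP+ cells, beside 5.60% higher and 9.57% lower over all genes tested. The median log2 fold change was 0.33 over the list and -0.02 over all genes tested. *ddc*, which makes serotonin from hydroxytryptophan and also acts in dopamine synthesis, had 42.6, 30.2, 134 and 149 CPM in GFP+ and 9.14, 3.87, 53.2 and 32.4 CPM in GFP- libraries. It was higher in GFP+ in every fish, as were 15.6% of the genes tested, and its log2 fold change was 2.12 (SE 0.34, edgeR FDR = 0.000115). Its libraries of fish 3 and 4 lay above those of fish 1 and 2 in both populations, as for 8.26% of the genes tested.

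Tph needs tetrahydrobiopterin. Of the 6 tested genes for making or recycling it, 2 were higher in GFP+ cells, beside 5.60% of all genes tested. *pcbd1*, which encodes pterin-4a-carbinolamine dehydratase, had a log2 fold change of 1.68 (SE 0.55, edgeR FDR = 0.0419). *qdprb1*, which encodes a dihydropteridine reductase, had 2.90 (SE 0.99, edgeR FDR = 0.0496) from 79 counts in all GFP+ and 12 counts in all GFP- libraries. *gch1*, the gene for GTP cyclohydrolase, had a log2 fold change of 1.33 (SE 0.73, edgeR FDR = 0.262), and *pts*, for the next enzyme, had 115 counts in all GFP+ and 23 in all GFP- libraries (edgeR FDR = 0.0718). Neither passed the test, although both were higher in the GFP+ library of all 4 fish, as were 15.6% of the genes tested.

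Monoamine oxidase, which breaks serotonin down, is encoded by *mao*, and this gene had 75.6, 111, 79.3 and 68.1 CPM in GFP+ against 17.0, 20.1, 35.4 and 39.5 CPM in GFP- libraries. No GFP- library reached a GFP+ library, an arrangement found for 5.58% of the genes tested, and the log2 fold change was 1.65 (SE 0.35, edgeR FDR = 0.00173). Of the vesicular and plasma membrane monoamine transporter genes in the list, *slc6a4a* matched no gene ID, so its level is not known. The others (*slc18a1*, *slc18a2* and *slc6a4b*) had too few counts to be tested. For the methyl donor used by Asmt, none of the 4 tested genes was called. *mat2aa*, which encodes a methionine adenosyltransferase, had a log2 fold change of 0.69 (SE 0.25, edgeR FDR = 0.0732). It was higher in GFP+ in 4 of 4 fish, as were 15.6% of the genes tested.

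The 14-3-3 proteins are known to bind and stabilise phosphorylated Aanat. Of their 11 genes only *ywhabl* was called, as higher, beside 5.60% higher and 9.57% lower over all genes tested. Its levels were 339, 265, 461 and 401 CPM in GFP+ and 182, 139, 171 and 137 CPM in GFP- libraries. The log2 fold change of *ywhabl* was 1.20 (SE 0.26, edgeR FDR = 0.00214). The other 10 were not called, and their log2 fold changes lay between -1.73 and 0.43.

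Homeobox factors of the Otx and Crx family are known to act on melatonin synthesis genes in photoreceptors and the pineal organ. *crx* (ENSDARG00000011989) had a log2 fold change of 0.72 (SE 0.28, edgeR FDR = 0.0884), *otx5* had 0.69 (SE 0.27, edgeR FDR = 0.0954) and *otx2* had -0.79 (SE 0.43, edgeR FDR = 0.264), so none was called. The only homeobox or bZIP factor called was *crema*, which encodes a cAMP-responsive element modulator, where 9.57% of all genes tested were called lower. Its levels were 83.9, 54.4, 91.5 and 102 CPM in GFP+ and 351, 180, 170 and 264 CPM in GFP- libraries, with every GFP+ library below every GFP- library, as for 8.96% of the genes tested. *crema* was lower by a log2 fold change of -1.52 (SE 0.28, edgeR FDR = 0.000398).

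Among the clock factors, which bind E-boxes of *aanat* genes in other vertebrates, *clock* (ENSDARG00000011703) was higher in GFP+ cells (log2 fold change 1.00, SE 0.30, edgeR FDR = 0.0236). The other 4 tested were not called, and over all genes tested 5.60% were called higher. The calls of *clock* and *qdprb1* were lost when any 1 fish was left out and that of *pcbd1* when fish 1, 3 or 4 was left out. Their FDR then lay between 0.0577 and 0.241. The calls of *ddc*, *mao*, *ywhabl* and *crema* held each time. Without the fish as a block the edgeR FDR was 0.141 for *ddc*, 0.374 for *clock* and 0.0825 for *pcbd1*. In that fit *qdprb1* did not pass the count filter, and the calls of *mao*, *ywhabl* and *crema* held.

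Of the melatonin receptor genes in the list, *mtnr1ab* and *mtnr1c* matched no gene ID, so their levels are not known. Transcripts of the other 4 were hardly sampled. Over all 4 GFP+ and all 4 GFP- libraries, *mtnr1aa* had 10 and 18 counts, *mtnr1ba* 2 and 5, *mtnr1bb* 1 and 4, and *mtnr1al* 0 and 0. None of the 4 could be tested, and a difference was not detectable at this depth.

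**Figure D3:**
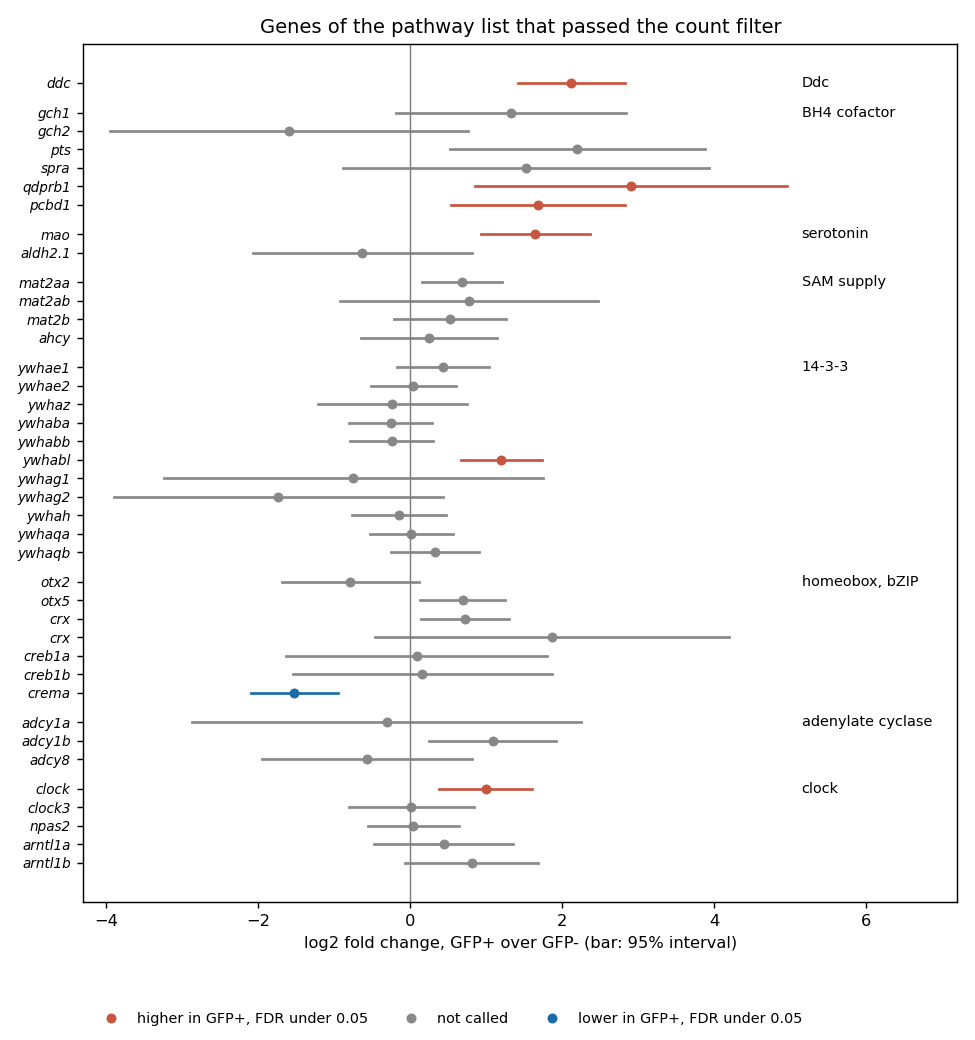
Log2 fold change of GFP+ over GFP- (point) with its 95% interval (bar) for the 39 tested genes of the pathway list, grouped by role (BH4, tetrahydrobiopterin; SAM, S-adenosylmethionine); crx appears once for each of its gene IDs. 6 genes are coloured as higher, from clock at 1.00 to qdprb1 at 2.90, and crema is coloured as lower at -1.52.

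The second question was whether the genes differ between the fish whose titles carry _2 (fish 3 and 4) and the other fish (fish 1 and 2). With 2 fish against 2, each population was fitted separately. In GFP+ libraries edgeR's quasi-likelihood test called 0 of the 5 genes. Over all 10469 genes tested it called 0.00% higher and 0.00955% lower, whereas 11.5% had an unadjusted p under 0.05, among them 3 of the 5 genes. The log2 difference of fish 3 and 4 over fish 1 and 2 was 2.11 for *asmt* (SE 0.41, edgeR FDR = 0.128), 2.48 for *tph1a* (SE 0.65, edgeR FDR = 0.231) and 1.60 for *aanat1* (SE 0.42, edgeR FDR = 0.231), none of which passed the test. DESeq2 called 208 genes higher and 73 lower here, these 3 among the higher ones, with adjusted p of 3.63e-05, 0.00612 and 0.0158. With each fish left out in turn, the edgeR difference of *tph1a* ran from 1.80 to 3.51, the highest without fish 1. Each of these fits leaves 1 fish in a group.

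In GFP- libraries *asmt* was 5.16-fold higher in fish 3 and 4 (log2 difference 2.37, SE 0.37, 95% interval 1.54 to 3.20), and it was the only 1 of the 5 genes that passed (edgeR FDR = 0.0275), where 0.451% of 11081 genes were called higher and 0.208% lower. This call was lost when fish 2 was left out (log2 difference 2.18, edgeR FDR = 0.141). It was also lost without scaling factors (1.27, edgeR FDR = 0.0824), a setting that moved the median of all genes tested from -0.02 to -1.13 and the calls from 50 higher and 23 lower to 25 higher and 542 lower. With mitochondrially encoded genes left out and no scaling factors, the difference was 2.24 (edgeR FDR = 0.0303). *aanat1* had a larger and less precise difference of 2.90 (SE 0.64, edgeR FDR = 0.0782), which DESeq2 called at an adjusted p of 0.00134. Its size changed with the fish used. Without fish 3, which had the highest GFP- level, the difference was 1.77, below that of *asmt* (2.51). Without fish 4 the difference of *aanat1* was 3.56. Each of these fits leaves 1 fish in a group, whose spread is taken from the other group. *tph1a* had 0.47 (SE 0.54, edgeR FDR = 0.743) and turned to -0.60 without scaling factors. *aanat2* had -0.49 (SE 0.43, edgeR FDR = 0.649).

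The populations were also fitted together with limma voom, with the fish as a random block. A single correlation between the libraries of a fish, estimated at 0.106, was used for all genes. The 8 libraries of 4 fish thus entered as nearly independent. For genes that vary more between fish, the limma FDR can be too low. *asmt* and *aanat1* were higher in fish 3 and 4, beside 2.88% of the 11335 genes tested. The log2 difference was 2.21 for *asmt* (SE 0.27, 95% interval 1.64 to 2.79, limma FDR = 5.72e-05) and 1.82 for *aanat1* (SE 0.39, 95% interval 1.01 to 2.64, limma FDR = 0.0110). The call of *aanat1* was lost when fish 1 was left out (limma FDR = 0.0702) and without scaling factors (1.08, limma FDR = 0.0646). *tph1a* had 1.62 (SE 0.50, limma FDR = 0.0760). With each fish left out in turn, which leaves 1 fish in a group, the difference of *tph1a* ran from 0.98 to 2.44. *aanat2* went the other way, with -0.70 (SE 0.37, limma FDR = 0.339), and *asmtl* had 0.54 (SE 0.81, limma FDR = 0.781). Without scaling factors *aanat2* was called lower (-1.53, limma FDR = 0.0105), and the calls over all genes moved from 327 higher and 127 lower to 98 higher and 2240 lower. In both populations every library of fish 3 and 4 stood above those of fish 1 and 2 for *asmt* and *aanat1*, as for 8.26% of genes.

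Other genes of the pathway differed between the same fish. Fitted separately, edgeR called 0 of 34 tested genes of the list in GFP+ libraries and 1 of 32 in GFP- libraries, which was *arntl1b* (log2 difference -4.45, edgeR FDR = 0.0373). In the fit over both populations, 1 of 35 tested genes of the list was higher and 5 were lower in fish 3 and 4, beside 2.88% higher and 1.12% lower over all genes. The higher one was *ddc*, with a log2 difference of 2.13 (SE 0.38, limma FDR = 0.00211). The 5 lower ones were all 5 tested clock factors, the partners Clock or Npas2 and Arntl (Bmal) that together drive the circadian clock. *arntl1b* had 82.5, 216, 14.3 and 6.40 CPM in GFP+ and 65.2, 119, 0 and 7.12 CPM in GFP- libraries, and its log2 difference was -4.20 (SE 0.77, limma FDR = 0.00313). *npas2* had 94.4, 172, 37.9 and 33.8 CPM in GFP+ and 136, 124, 36.5 and 29.8 CPM in GFP- libraries, with a log2 difference of -1.90 (SE 0.34, limma FDR = 0.00249). For both genes the libraries of fish 3 and 4 lay below those of fish 1 and 2 in both populations, as for 9.67% of genes. The log2 difference was -2.83 for *arntl1a* (limma FDR = 0.0221), -1.98 for *clock3* (limma FDR = 0.0231) and -1.29 for *clock* (limma FDR = 0.0494).

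The clock calls did not rest equally on all fish. Those of *arntl1b* and *npas2* held with each fish left out. That of *clock3* was lost without fish 2 or fish 3, that of *arntl1a* without fish 2, 3 or 4, and that of *clock* without fish 2 or fish 4, with a limma FDR of 0.0521 to 0.251. That of *clock* was also lost with mitochondrially encoded genes left out (limma FDR = 0.0504). The clock list was written with earlier results of these libraries known and is not independent evidence of a direction, and the part of the clock genes in the levels of *asmt* and *aanat1* was not tested.

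**Figure D4:**
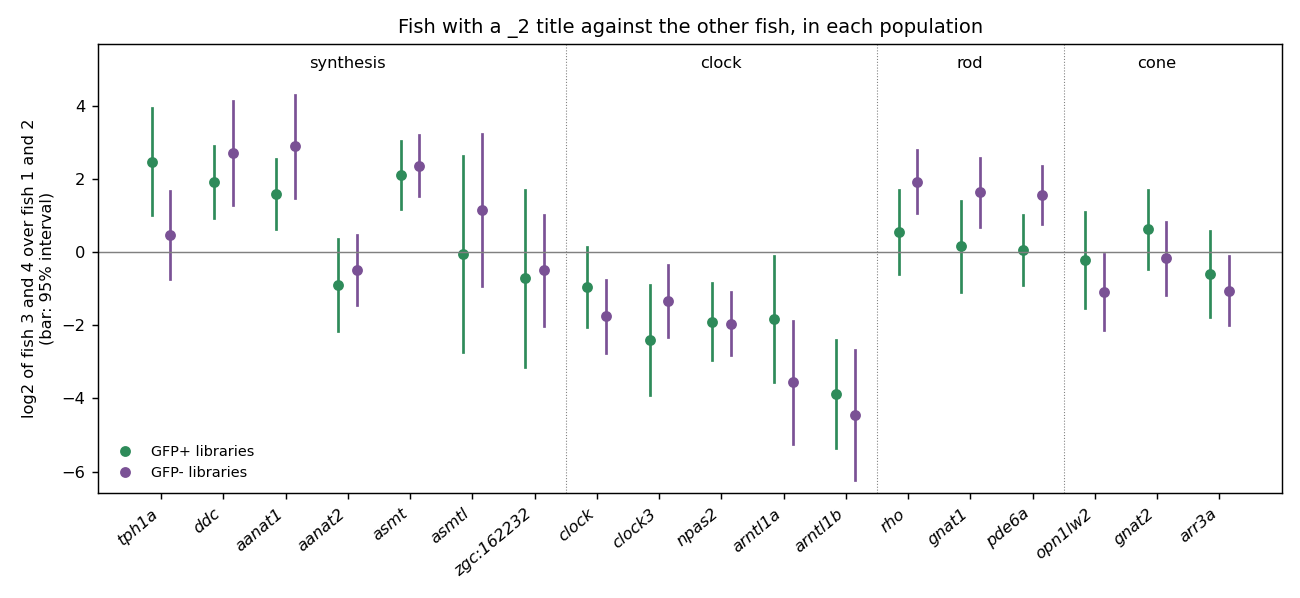
Log2 difference of fish 3 and 4 (titles with _2) against fish 1 and 2, with its 95% interval (bar), in GFP+ and in GFP- libraries fitted separately by edgeR, for synthesis and clock genes and 3 each of the rod and cone markers. asmt lies at 2.11 in GFP+ and 2.37 in GFP- libraries, the clock genes lie between -4.45 and -0.95, and rho lies at 0.55 in GFP+ and 1.94 in GFP- libraries.

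Some rod and some cone transcripts moved with the titles as well. In GFP- libraries 0.451% of all genes tested were higher in fish 3 and 4 and 0.208% were lower. The 14 rod markers tested all had a positive log2 difference, with a median of 1.60, beside -0.02 over all genes tested. Of these markers 4 were called higher and none was called lower. Those called were *nr2e3* (a nuclear receptor of rod differentiation, log2 difference 5.26, edgeR FDR = 0.00654), *pde6g* (a rod phosphodiesterase subunit, 3.28, edgeR FDR = 0.0175), *saga* (a rod arrestin, 2.61, edgeR FDR = 0.0175) and *cnga1* (a subunit of the rod cyclic nucleotide channel, 3.04, edgeR FDR = 0.0188). The summed GFP- level of the rod markers was 3487, 5113, 16079 and 13533 CPM in fish 1 to 4. For *rho* it was 746, 961, 3565 and 2829 CPM, with a log2 difference of 1.94 (SE 0.39, edgeR FDR = 0.0593).

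In GFP+ libraries the rod markers did not move together. None of the 16 tested was called, 9 had a positive difference, and the values ran from -0.98 to 5.08 with a median of 0.066. *nr2e3* (5.08, edgeR FDR = 0.100) and *pde6g* (2.14, edgeR FDR = 0.186) lay at the top of this range, with *rho* at 0.55. Over both populations 5 of the 16 were higher and 0 lower (*nr2e3*, *pde6g*, *saga*, *rho* and *gngt1*), beside 2.88% higher and 1.12% lower over all genes tested. Of the 18 cone markers tested between GFP+ and GFP- cells, 2 were higher in the same fit (*cnga3b* and *cngb3*). A further 4 were lower (*opn1lw1*, *opn1mw3*, *opn1sw1* and *pde6h*). The part of rod transcript in the levels of *asmt* and *aanat1* was not tested.

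Whether the GFP+ to GFP- ratio itself differed between these fish was tested with an interaction term, which called 0.0318% of 12564 genes higher and 0.135% lower. None of the 5 genes passed, and of these *tph1a* alone had an unadjusted p under 0.05, as did 6.08% of all genes tested. For *tph1a* the log2 ratio was -0.92 and -0.97 in fish 1 and 2 and 0.80 and 1.30 in fish 3 and 4, so that the direction was opposite, with a difference of 2.04 (SE 0.64, 95% interval 0.74 to 3.33, edgeR FDR = 0.324). The interaction was -1.08 for *aanat1* (SE 0.64, edgeR FDR = 0.883), -0.23 for *asmt* (SE 0.43, 95% interval -1.11 to 0.64, edgeR FDR = 0.997) and -0.18 for *aanat2* (SE 0.55, edgeR FDR = 1). Without scaling factors it turned to 0.22 for *asmt* and 0.28 for *aanat2*. For *rho* it was -1.32 (SE 0.38, edgeR FDR = 0.233).

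Likeness between genes was described as Pearson's r of log2 CPM over the 8 libraries. These libraries share 4 fish and 2 populations, so r holds the differences between both. *aanat1* and *asmt* had an r of 0.919, which placed *asmt* at rank 101 among the genes closest to *aanat1* and *aanat1* at rank 81 among those closest to *asmt*. *aanat2* had an r of 0.032 with *aanat1*, of -0.24 with *asmt* and of -0.77 with *tph1a*. The genes closest to *aanat1* were *palmda* (r = 0.984), *pde6g* (a rod phosphodiesterase subunit, r = 0.979), si:ch73-165l19.1 (r = 0.978), *gas2l3* (r = 0.975) and zgc:194990 (r = 0.973). Those closest to *asmt* were CU929159.1 (r = 0.994), *grid2ipb* (r = 0.986), *col17a1a* (r = 0.985), zgc:112320 (r = 0.985) and *rcl1* (r = 0.981). For *aanat2* they were *tmem245* (r = 0.953), *aftpha* (r = 0.950), *chd4b* (r = 0.944), *gsk3ab* (r = 0.942) and *pycr1a* (r = 0.935). All 5 genes closest to *aanat2* were, like it, not called between GFP+ and GFP- cells. Over all genes tested only 5.60% were called higher and 9.57% lower. These 5 were picked by an r that holds the difference between populations, so the choice largely set this outcome.

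With each population centred on its mean, only differences between fish within each population remained. *aanat1* and *asmt* then had an r of 0.869. This placed *asmt* at rank 303 among the genes closest to *aanat1* and *aanat1* at rank 310 among those closest to *asmt*. *aanat2* had an r of -0.38 with *aanat1*, of -0.65 with *asmt* and of -0.83 with *tph1a*. Among the 5 genes closest to *asmt*, 3 were shared with the list before centring (CU929159.1, *grid2ipb* and zgc:112320), and *pde4d* (r = 0.990) and *dedd1* (r = 0.989) were added. For *aanat2*, 3 were shared (*tmem245*, *aftpha* and *pycr1a*), and zgc:73340 (r = 0.941) and *plekhg2* (r = 0.938) were added. None was shared for *aanat1*, whose closest genes were then LRFN2 (r = 0.978), *adssl* (r = 0.977), *zbtb8os* (r = 0.977), ARF5 (r = 0.976) and *u2surp* (r = 0.976).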

How the data were processed

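The authors used Sickle for trimming, FLASH for overlapping read pairs and BWA for alignment to Zv9, and counted reads per Ensembl gene with HTSeq; the deposited counts are whole numbers without normalization. Whether counting used strand is not given in the sources used here. HTSeq's counters of unassigned reads made up 48.2% ± 6.30 (SD, n = 4) of GFP+ and 37.5% ± 3.22 (SD, n = 4) of GFP- totals and were left out. A further table deposited by the authors holds a normalized signal per library and the columns of their edgeR comparison (log2 fold changes, log2 CPM, a likelihood ratio score, p-values and FDR), which were not used. Whole reads were recovered from that signal for 100% of values (tolerance 0.01), and 100% equalled the counts; the count test on them called 694 genes higher and 1123 lower. Symbols and coordinates came from the authors' table for 13325 IDs; a table of gene names gave 10867 further symbols and none for 9545 of 33737 IDs. No other gene of the authors' table overlapped a member or zgc:162232.

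Counts were tested in R 4.3.3 with edgeR 4.0.16 (TMM, filterByExpr, trended dispersion, quasi-likelihood F test, Benjamini-Hochberg over all genes tested) and limma 3.58.1, with DESeq2 1.42.0 as an alternative. The edgeR fits were checked on simulated counts in which 200 genes changed by 2 on the log2 scale. The changed genes were drawn from those above the median level. All fish had the same mean, and the spread came from the fit with the fish as a block. They recovered 84% of these genes between GFP+ and GFP-, but 48% (GFP+) and 46.5% (GFP-) between the titles and 17% for the interaction. Missing calls in the last 3 are therefore weak evidence of no difference. Because differences between fish were not simulated, the recovery between the titles may be too high for these data. Python 3.11.15 made the tables and figures. Standard errors and 95% intervals were derived from the fold change and F statistic. Within-fish ratios had 0.5 CPM added to each level, and the prior count for likeness was 2. The fish was a block because both populations came from the same animal; deviations of the libraries of a fish correlated at 0.323, 0.292, 0.333 and 0.214, each above the highest correlation with another fish. Members and lists were chosen with earlier results of these data known. Named genes are the members, the pathway list, the 5 genes most like *aanat1*, *aanat2* and *asmt*, and cell type markers. Alternatives covered pairing, test, tool, scaling, filter, threshold, mitochondrial genes, the 10 most abundant genes and leaving out each fish. The planned look at promoter and protein sequences was not run, since no sequence was at hand.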

Additional observations from a re-analysis of the deposited data

Results flagged for a closer look

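In 92 groups of 4 libraries, for the 5 genes, their relatives and the tested pathway genes, 5 held a library far from the others, where chance gives about 1 in 20. The GFP+ library of fish 3 stood apart for *pts* (34.3 CPM, the next library 10.1 CPM), *mat2aa* (651 CPM, the next 353 CPM) and *ywhae1* (254 CPM, the next 160 CPM), and its GFP- library stood apart for *mat2aa* (296 CPM, the next 232 CPM). The GFP- library of fish 1 stood apart for *spra* (5.04 CPM, the next 1.04 CPM). None of the 5 genes chosen by name had such a library.

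*tph1a* was lower in GFP+ than in GFP- cells in fish 1 and 2 and higher in fish 3 and 4, and the difference between these fish was 2.04 on the log2 scale, which did not pass the test over all genes (edgeR FDR = 0.324).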

How the results depend on the processing

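For GFP+ against GFP-, 15 alternatives were run. *asmt* (log2 fold change 1.75 to 2.205, FDR 6.96e-13 to 0.145) and *aanat1* (2.17 to 3.27, FDR 4.15e-13 to 0.0972) each kept the call in 14. Both lost it only without the replicate block (1.75 and 2.17), and *aanat2* was called in none. The alternatives include the recovered reads, which equal the counts, and the FDR under 0.01, which reads the main fit at another threshold. Neither is a separate check of the calls. Without the block, 237 genes were higher and 428 lower, with 2 pathway genes higher. Without scaling factors these counts were 1125, 735 and 11, and at an FDR under 0.01 they were 393, 714 and 3. Leaving out each fish gave 394 to 682 higher, 731 to 1098 lower and 3 to 4 pathway genes higher, *aanat1* 2.37 to 3.27 and *asmt* 1.75 to 1.94, and it reversed *tph1a* (-0.36 to 0.44) and *asmtl* (-0.72 to 0.32), neither of which was called.

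For the titles in GFP+ libraries, DESeq2 called 208 higher and 73 lower, limma voom over both populations 327 and 127, and no filter 186 and 102, beside 0 and 1 as reported. Leaving out each fish, which leaves 1 fish in an arm whose spread is taken from the other arm, gave 6 to 182 higher and 3 to 83 lower. *asmtl* reversed under voom (0.54) and with fish left out (-1.49 to 0.79), and *aanat2* reached 0.073 without fish 2 (range -1.43 to 0.073). In GFP- libraries, DESeq2 called 296 and 90, voom 327 and 127, no filter 332 and 190, no scaling factors 25 and 542, and leaving out fish 63 to 1156 and 17 to 989. With mitochondrial genes left out and no scaling factors, an alternative chosen after seeing the data like the voom ones below, 35 were lower. Without scaling factors *asmtl* (-0.037) and *tph1a* (-0.60) reversed, and *tph1a* ranged from -0.066 to 1.38 with fish left out.

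The interaction called 17 genes higher with the likelihood ratio test, 21 higher and 7 lower without scaling factors, where *asmt* (0.22) and *aanat2* (0.28) reversed, and 0 and 0 without the replicate block. In the voom fit, no scaling factors gave 98 higher, 2240 lower and 10 pathway genes lower, and reversed *asmtl* (-0.37). Leaving out fish gave 117 to 748 higher, 53 to 176 lower, and 1 to 2 and 2 to 5 pathway genes. The largest counts with a fish left out came without fish 4 in all 3 comparisons of the titles, and some counts rose and others fell. The cause of these changes was not tested. Low counts limit *asmtl*, the TPH2 ID and the melatonin receptor genes that matched an ID, and 2 fish in each title group limit every result on the titles.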
